A study of Mus musculus with 47 samples.

Results

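Interferon-stimulated genes are the genes that a cell switches on when it senses interferon. They were followed here as a fixed list of 33 mouse genes, chosen by name, in a table of 53697 genes from cultured microglia, the resident macrophages of the brain. All 33 were found, and 29 of them were abundant enough to be tested. The cells were primary microglia from the forebrain of C57BL/6 mice, grown in DMEM with fetal bovine serum. The wild type (WT) came from the Jackson Laboratory. In the E3 and E4 lines, both from Taconic, the mouse Apoe alleles were replaced by human APOE ε3 or APOE ε4, the ε4 form being the main genetic risk factor for Alzheimer's disease. The remaining genotypes came from one Jackson Laboratory line with an inactivated Apoe gene, as Apoe +/- (Het) and Apoe -/- (KO). For each genotype, some cultures had no treatment and others took up myelin, the membrane that wraps nerve fibres, for 3 hours, and all were collected at 24 hours. Untreated groups held 5 libraries each apart from 4 for E3, and myelin groups held 5 apart from 4 for E3 and 4 for Het, 47 libraries in all. The series asks how APOE genotype alters microglia at rest and after a myelin load. Whether replicates are separate animals or cultures is not labelled, and p-values may then reflect technical spread between samples alone. E3 and E4 also differ from WT in their supplier and colony, and the allele and the colony cannot be told apart in those comparisons. Between E3 and E4, which are separate lines, the allele and the line cannot be told apart either. Het and KO came from the line with the inactivated gene, and WT is listed apart from it. Genotype and line cannot be told apart in their comparisons with WT either.

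Type I interferons act through the receptor chains encoded by Ifnar1 and Ifnar2, whose kinases phosphorylate STAT2. STAT2 and IRF9 belong to the complex ISGF3, which binds the interferon-stimulated response element (ISRE) in front of target genes. The targets include sensors of viral nucleic acid, enzymes that block viral replication, the ubiquitin-like protein ISG15, and IRF7, a factor that raises further interferon production. In the brain, microglia with high levels of these genes are a recurring state in ageing, demyelination and amyloid disease.

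The promoters of 5 members with different roles are printed below because each holds a match to the core of this element. Each is the 250 bases before the RefSeq transcription start (GRCm38.p6), written 5′ to 3′ on the gene's own strand, with matches to the ISRE core in capitals. The core searched was GAAA, NN and GAAA without gaps, where N is any base, on both strands, so that a match on the other strand reads TTTC, NN and TTTC. Stat2 (chr10:128270248-128270497, plus strand) encodes a subunit of ISGF3. Ifit3 (chr19:34583279-34583528, plus strand) encodes a protein of the IFIT family, and Isg15 (chr4:156200819-156201068, minus strand) the ubiquitin-like modifier. Bst2 (chr8:71537473-71537722, minus strand) encodes tetherin, which holds budding virus at the membrane, and Gbp2 (chr3:142620413-142620662, plus strand) a guanylate-binding GTPase.
Stat2: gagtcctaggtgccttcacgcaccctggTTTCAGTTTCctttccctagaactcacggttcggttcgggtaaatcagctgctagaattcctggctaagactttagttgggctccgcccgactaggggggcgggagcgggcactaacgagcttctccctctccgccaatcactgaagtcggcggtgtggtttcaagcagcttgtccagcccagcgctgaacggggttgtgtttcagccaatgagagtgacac
Ifit3: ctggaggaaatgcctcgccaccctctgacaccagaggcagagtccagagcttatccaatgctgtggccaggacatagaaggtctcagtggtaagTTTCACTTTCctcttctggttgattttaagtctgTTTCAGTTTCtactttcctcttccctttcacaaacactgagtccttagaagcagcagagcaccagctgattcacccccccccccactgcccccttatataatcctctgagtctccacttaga
Isg15: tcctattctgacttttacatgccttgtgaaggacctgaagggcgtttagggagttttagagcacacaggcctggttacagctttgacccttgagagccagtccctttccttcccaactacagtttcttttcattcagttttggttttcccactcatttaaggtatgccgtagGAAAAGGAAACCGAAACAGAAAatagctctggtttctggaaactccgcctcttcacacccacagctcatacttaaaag
Bst2: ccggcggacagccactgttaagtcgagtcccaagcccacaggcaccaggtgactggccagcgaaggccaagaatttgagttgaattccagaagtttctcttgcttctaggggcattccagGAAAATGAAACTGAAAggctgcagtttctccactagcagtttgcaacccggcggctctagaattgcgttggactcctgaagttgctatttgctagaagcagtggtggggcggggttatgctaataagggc
Gbp2: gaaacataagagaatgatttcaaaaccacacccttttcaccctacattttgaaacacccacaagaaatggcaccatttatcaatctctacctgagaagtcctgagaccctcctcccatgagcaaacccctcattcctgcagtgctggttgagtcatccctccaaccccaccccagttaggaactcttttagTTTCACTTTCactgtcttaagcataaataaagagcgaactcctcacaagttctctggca
Isg15 held 3 overlapping matches whose first bases lay 78, 72 and 66 bases before the start. Bst2 held 2 overlapping matches, at 130 and 124 bases, and Ifit3 held 2 separate ones, at 156 and 122 bases. Stat2 and Gbp2 held 1 each, at 222 and 59 bases. RefSeq windows of 300 bases, 250 before to 50 after the start, were found for 25 of the 33 members, and 14 of these 25 (56%) held the core, against 3.99% of 27025 genes with such a window. Irf7, Oasl2 and Lgals3bp held no match in this window. The core of the gamma-activated site, TTCNNNGAA, was present in 5 of the 25 (20%) and in 9.55% of genes.

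The deposited values are TPM, transcript abundances scaled to a fixed library total, which give no read depth, so counting error is unknown. Nuclear protein-coding genes held only part of each library's TPM, with group means from 7.25% to 23.4%. The values below were rescaled to that coding total and to a common composition and are called scaled TPM. They are per length and can be compared between genes. In 4 Het libraries the coding share was under 6% (0.468% to 5.66%). These were left out of the tests, and their values are shown as open points in the plots. In untreated cultures the coding share was 20.5% to 27.3% in WT, 11.1% to 16.6% in E3 and 7.16% to 16.1% in E4. E3 and E4 did not overlap WT, whereas KO did (16.4% to 24.9%). After myelin, E3 and E4 overlapped WT. The E4 mean was 12.1% untreated and 18.6% after myelin. The RNA Gm23935 held 69.4% to 98.99% of each library's TPM. The part of the coding share in the differences below was not tested. Mouse Apoe was 47644 to 65926 scaled TPM in untreated WT, 9224 to 64216 in Het, 68.8 to 88.3 in KO, 87.8 to 114 in E3 and 136 to 218 in E4. The 10 microglial markers were present in every library, with C1qa between 623 and 4439 scaled TPM, but the homeostatic markers P2ry12 (0.954 to 10.3) and Tmem119 (5.64 to 60.8) were low. Markers of other cells differed between genotypes. The sum of 8 astrocyte markers was 108 to 126 in untreated WT, 664 to 821 in E3, 1301 to 2274 in E4, 28.8 to 55.5 in Het and 60.2 to 90.5 in KO. The sum of 8 fibroblast and pericyte markers was 735 to 1133, 354 to 525, 106 to 190.3, 26.9 to 79.4 and 31.6 to 652 in the same order. The sum of 6 border macrophage and monocyte markers, nearly all of it Pf4, was 698 to 1054 in untreated WT, 317 to 498 in E3, 319 to 495 in E4, 91.5 to 418 in Het and 422 to 556 in KO. That of 5 neuron markers was 13.9 to 19.0, 56.7 to 63.7, 54.3 to 72.3, 2.77 to 12.8 and 4.91 to 7.91. Lymphocyte markers were near 0, with a highest value of 8.37 for Cd3e, and of 5 markers of plasmacytoid dendritic cells, which make interferon, Siglech reached at most 2.14, Ccr9 at most 2.95 and Ly6d was 0 in 37 of 47 libraries, while Tcf4 (47.6 to 125) and Bst2, itself a member, were present in every library. In these bulk cultures, fewer cells of a type and less RNA per cell cannot be told apart.

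The members spanned a wide range of abundance. Ifitm3, a membrane protein that blocks viral entry, led with a mean of 891 scaled TPM over the 47 libraries, followed by Bst2 at 334 and Lgals3bp, a secreted galectin-binding glycoprotein, at 259. Ifi35, Oas1a, Rtp4, Oasl2 and Isg15 lay between 37.6 and 52.3. The IFIT genes other than Ifit3 were near 4 to 5, at 4.89 for Ifit1, 4.28 for Ifit2 and 4.11 for Ifit3b. The 4 members that were not tested, Oas3, Oasl1, Mx2 and Ifi44, were under 5 scaled TPM in every library, with means of 2.11, 1.43, 1.35 and 0.684. Of the interferon genes only Ifnb1 and Ifng were looked at, and both were barely present. Ifnb1 was 0 in 25 libraries and at most 1.11, and Ifng was 0 in 40 and at most 0.31.

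Some members lie side by side and share sequence. Ifit2, Ifit3, Ifit3b and Ifit1 follow one another on chromosome 19 between 34550694 and 34650009 (mm10). Oas2, Oas3 and Oas1a lie on chromosome 5 between 120730333 and 120907521, and Rsad2 and Cmpk2 are head to head on chromosome 12. Ifit3 shares 61.8% of its 31-base words with Ifit3b, and Oas1a shares 68.7% with Oas1g, so the division of reads within these pairs is uncertain.

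**Figure D1:**
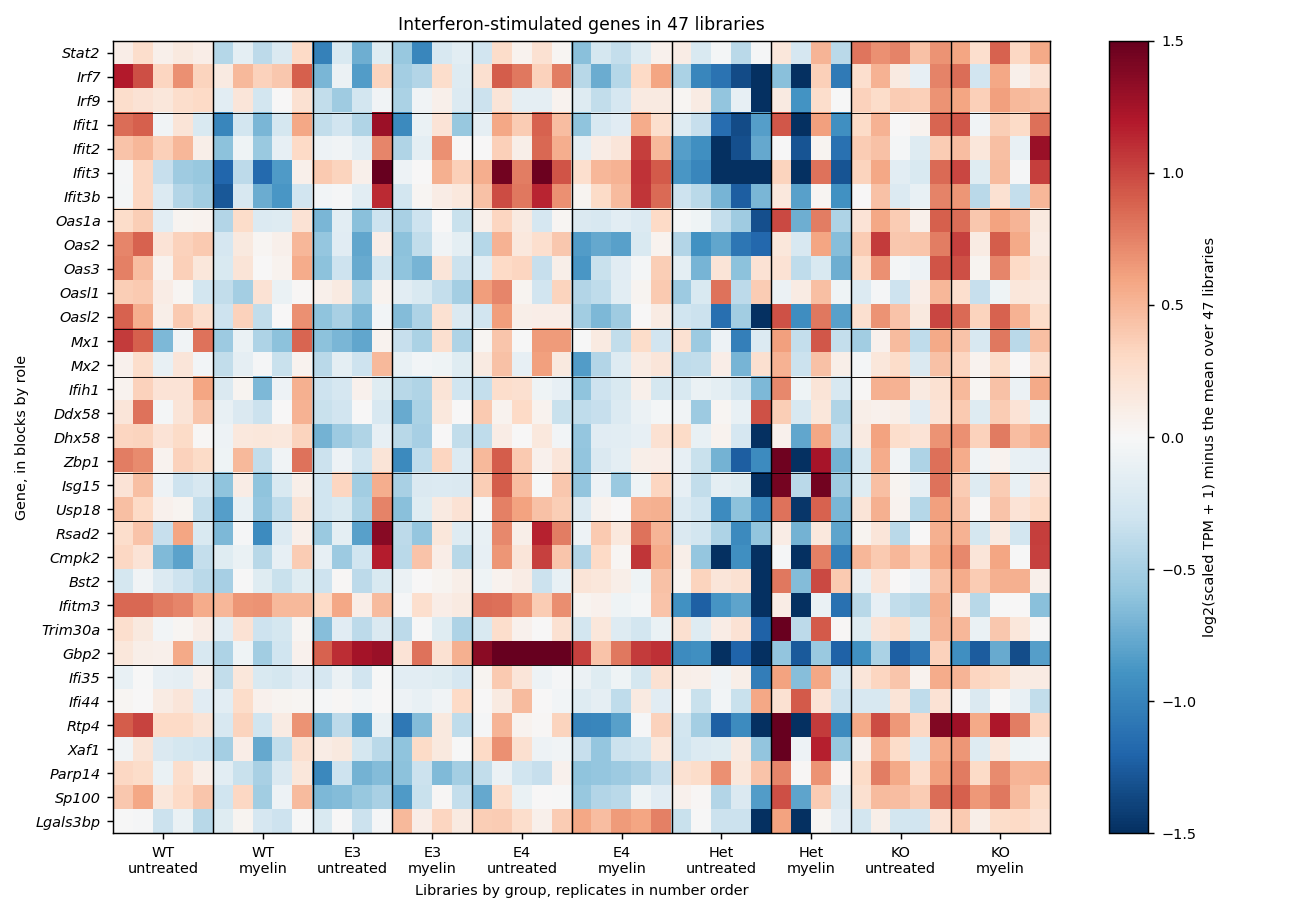
Level of the 33 genes (vertical axis, in blocks by role) in the 47 libraries (horizontal axis, by group), as log2(scaled TPM + 1) minus the gene's mean over libraries, from blue (lower) to red (higher). Whole columns shift together within a group, as in the replicates 1 and 3 of Het after myelin, and Gbp2 is higher in every E4 library (11 to 19.3 untreated) than in every Het or KO library. The Het libraries left out of the tests, replicate 1 of Het after myelin among them, are not marked.

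Within a group, the members went up and down together from one library to the next. Over 43 libraries, each tested member's deviation from its group mean correlated with the mean deviation of the other 28 at a median of 0.75, from 0.52 for Ddx58 to 0.94 for Oasl2. These libraries share scaling and composition, and the values are given as a description. Counts of members by sign in the comparisons below are therefore not counts of independent genes. KO untreated 5 held the highest value of its group for 24 of 29 members and also the highest fibroblast marker sum among the KO libraries, 652 scaled TPM. E3 untreated 4 was highest for 20, WT after myelin 5 for 21 and E4 after myelin 5 for 19, whereas E4 untreated 1 was lowest for 19. In Het after myelin, replicates 1 and 3 together held the highest value for 15 and 14 of the 29. The part of cell composition in these shifts was not tested.

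**Figure D2:**
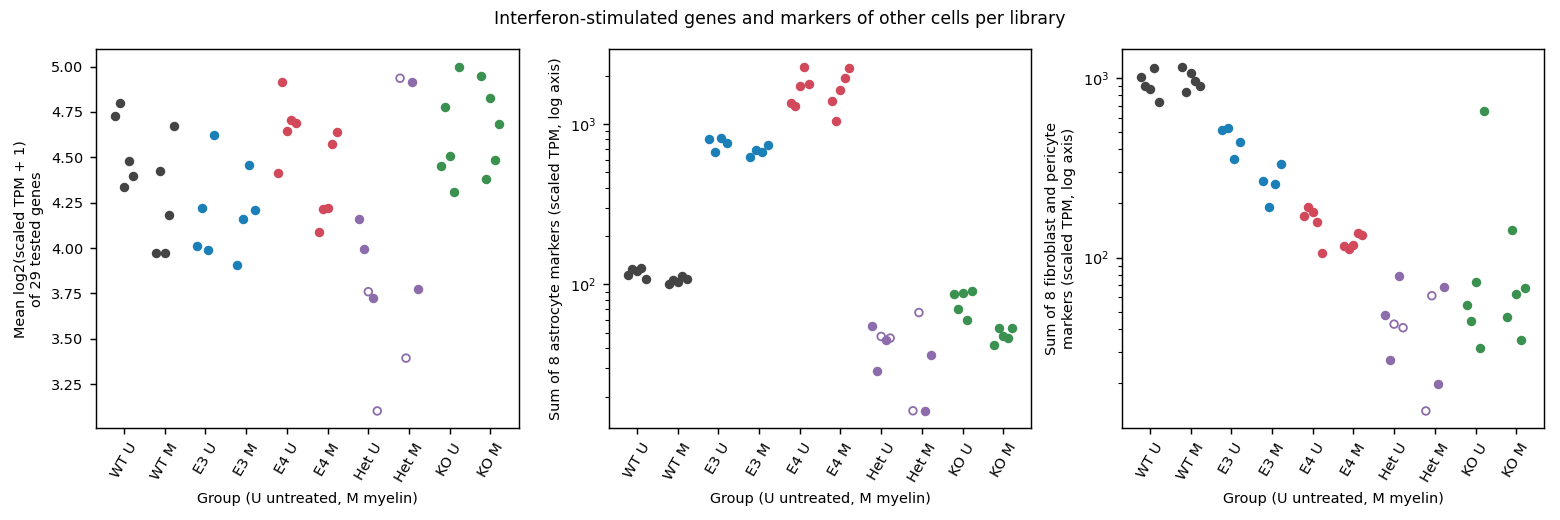
Mean level of the 29 tested genes as log2(scaled TPM + 1) (left), and the sums of 8 astrocyte markers (centre) and 8 fibroblast and pericyte markers (right) in scaled TPM on log axes, 1 point a library, by group (U untreated, M myelin). Open points are the 4 Het libraries left out of the tests; the mean level spans 3.10 to 5.0, and the E4 libraries have the highest astrocyte sums.

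Untreated E4 microglia had higher levels of some interferon-stimulated genes than untreated E3 microglia. Of the 29 tested members, 5 were higher, none was lower and 24 did not pass. The 5 were Irf7, Stat2, Gbp2, Parp14 and Lgals3bp. All 29 differences were positive, with a median of 0.45 on the log2 scale beside -0.0045 over all 10894 genes, of which 5350 were positive. The 17.2% of members called is close to the 16.8% called among all genes. By direction, 17.2% of members and 6.83% of all genes were higher, and 10.0% of all genes were lower. The test compared 5 E4 with 4 E3 libraries by limma, and a gene was called where its Benjamini-Hochberg adjusted p over all genes tested was under 0.05.

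Irf7, the regulator that amplifies interferon production, was 16, 24.7, 14.3 and 33.3 scaled TPM in untreated E3 replicates 1 to 4 and 31.3, 50.3, 46.2, 33.8 and 45.5 in untreated E4 replicates 1 to 5. Only the highest E3 library reached into the E4 range. The difference was 0.93 ± 0.28 (adjusted p = 0.0156), a fold of 1.91. Differences are of log2(scaled TPM + 1), so that those of low genes are understated. Here and below, ± after a log2 difference is its SE. Stat2 was 10.9, 19.5, 13.4 and 20.3 in E3 and 18.6, 28.1, 23.8, 27.1 and 23.4 in E4, where the lowest E4 library fell inside the E3 range. Its difference was 0.59 ± 0.18 (adjusted p = 0.0184). Irf9, which also belongs to ISGF3, differed by 0.24 ± 0.12 (adjusted p = 0.177) and was not called.

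Among the effectors, Gbp2 did not overlap between the groups. It was 7.68, 9.07, 10.2 and 10.5 in E3 and 11, 16.6, 15.0, 19.3 and 15.1 in E4, a difference of 0.65 ± 0.22 (adjusted p = 0.0333). Lgals3bp was 210.4, 247, 197 and 244 in E3 and 318, 323, 297, 259.7 and 321 in E4, again without overlap. Its difference of 0.44 ± 0.11 (adjusted p = 0.00371) was the smallest of the 5 and had the lowest adjusted p. Parp14, an ADP-ribosyltransferase, was 5.80, 9.70, 7.11 and 7.50 in E3 and 9.29, 11.5, 9.84, 9.50 and 12.9 in E4, with 1 E3 library inside the E4 range, and differed by 0.45 ± 0.14 (adjusted p = 0.0184).

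The best-known members did not pass. Isg15 was 28.2, 43.8, 24.0 and 51.5 in E3 and 45.5, 66.6, 48.5, 34.8 and 46.6 in E4, overlapping widely, with a difference of 0.42 ± 0.26 (adjusted p = 0.302). Ifit3 was 25.8, 24.7, 20.5 and 56.3 in E3 and 28.8, 54.4, 33.8, 55.4 and 38.2 in E4. A single E3 library at the top of its group exceeded all E4 libraries, and the difference of 0.46 ± 0.34 (adjusted p = 0.396) lay within the spread. Oasl2, a member of the oligoadenylate synthetase family, was 23.7, 25.8, 22.6 and 35.6 in E3 and 29.7, 56.9, 38.9, 39.3 and 39.2 in E4 and differed by 0.57 ± 0.24 (adjusted p = 0.103). Rsad2, or viperin, which makes a chain-terminating nucleotide, was 1.65, 2.53, 1.21 and 9.07 and 2.60, 5.43, 3.13, 7.67 and 5.64, a range in which replicate 4 of E3 was again the highest. Its difference was 0.56 ± 0.33 (adjusted p = 0.26). For Bst2 (259, 325, 243 and 274 against 306, 333, 346, 257 and 298) the difference was 0.16 ± 0.12 (adjusted p = 0.407), and for Ifitm3 (977, 1186, 852 and 1102 against 1423, 1412, 1262, 1036 and 1283) it was 0.32 ± 0.17 (adjusted p = 0.194). The largest difference without a call was that of Mx1, an antiviral GTPase, at 0.85 ± 0.33 (adjusted p = 0.0726).

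The count rested on single libraries. Without E3 untreated 1 it was 1 of 29, without E3 untreated 3 or E4 untreated 5 it was 3, without E4 untreated 1 it was 9, and without E3 untreated 4 it was 10. Lgals3bp kept its call whichever library was left out, and the other 4 each lost theirs in at least 1 case. The count was 12 in a fit of all 47 libraries with library weights and 1 (Stat2) in the same fit without weights. The sums of microglial markers did not overlap between these groups either, at 5405 to 6535 in E3 and 6865 to 8216 in E4. Nor did the astrocyte and fibroblast sums given above. The sum of 8 oligodendrocyte markers was 89.4 to 96.9 in E3 and 129 to 180 in E4, also without overlap. The part of these markers in the differences was not tested.

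**Figure D3:**
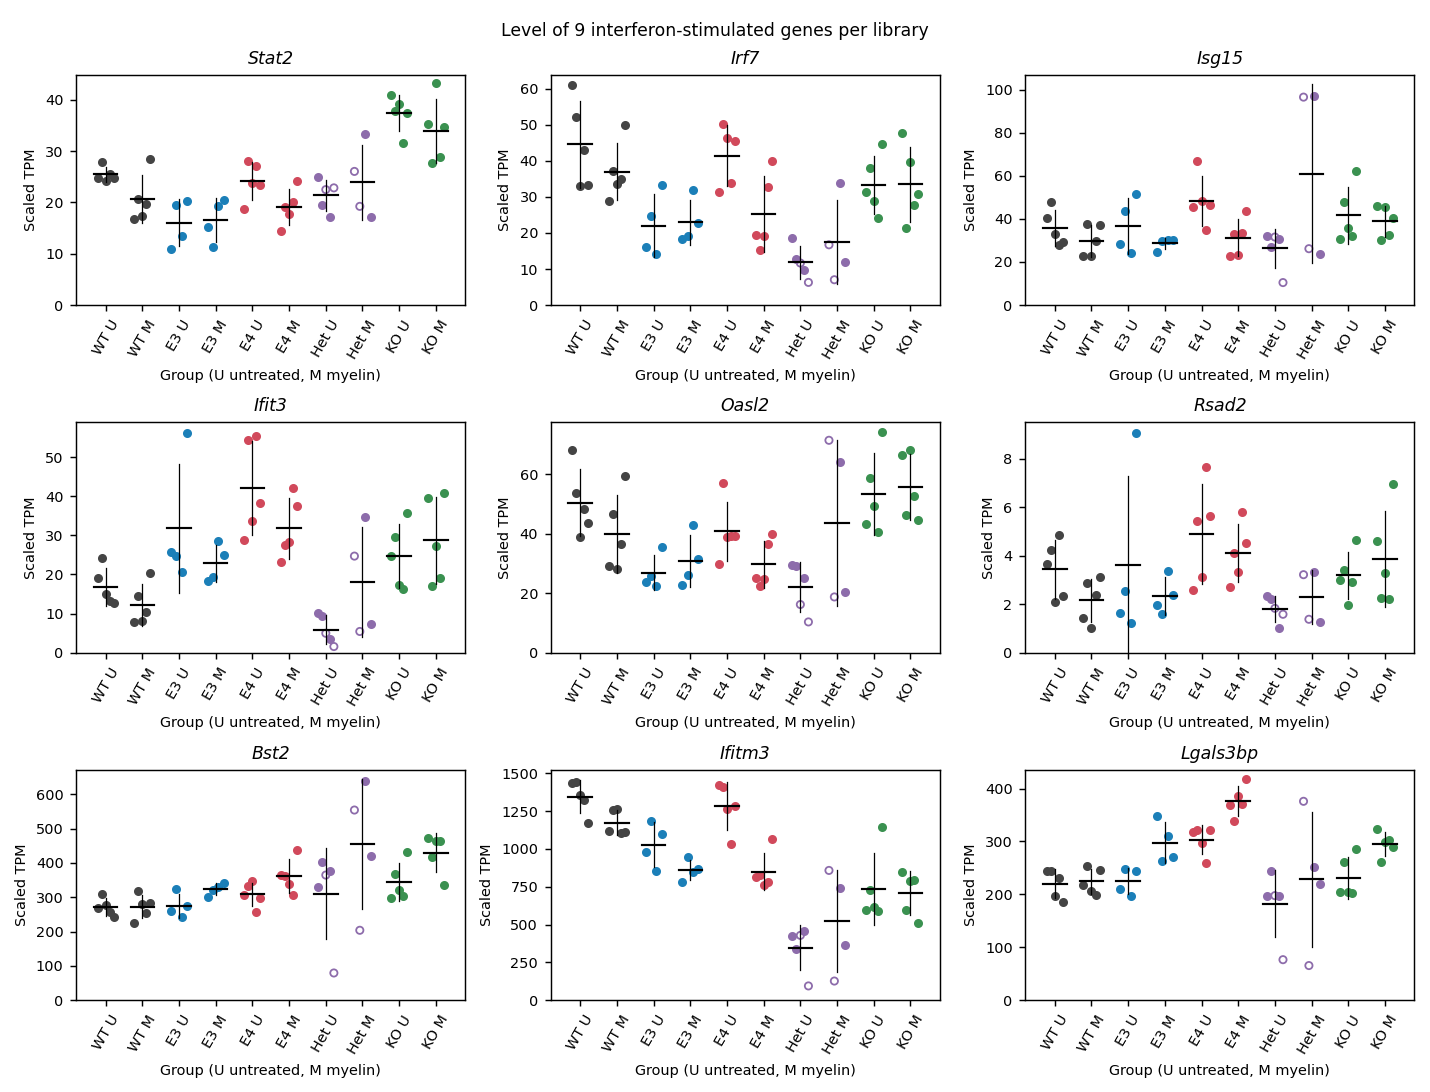
Scaled TPM of 9 interferon-stimulated genes, 1 point a library, by group (U untreated, M myelin); horizontal bars are means over all libraries of a group and vertical lines the SD. Open points are the Het libraries left out of the tests. Among the untreated groups Stat2 is highest in KO and Ifitm3 lowest in Het, and Lgals3bp is highest in E4 after myelin, where it spans 339 to 418.

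Between E4 and E3 after myelin, Lgals3bp was higher in E4 and the other 28 members did not pass, 3.45% called where 11.1% of all genes were (5.99% higher and 5.12% lower). It was 347, 264, 309.6 and 271 in E3 and 369.7, 339, 385, 371 and 418 in E4, with 1 E3 library inside the E4 range, and differed by 0.34 ± 0.11 (adjusted p = 0.0323). Irf7 and Stat2 gave 0.08 ± 0.28 (adjusted p = 0.908) and 0.21 ± 0.18 (adjusted p = 0.537). The Lgals3bp call was lost without any one of E3 after myelin 2 or 4 or E4 after myelin 3 or 5. Whether the myelin response itself differed between E4 and E3 was tested as an interaction, in which limma called 0 of 29 members and 0 of 10894 genes (percent called 0), with 3 members at an unadjusted p under 0.05 and 0 called with library weights. The interaction was negative for 27 of 29 members and for 4998 of 10894 genes. Its sizes were largest for Irf7 (-0.86 ± 0.39) and Oas2 (-0.77 ± 0.34), neither of them called.

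Untreated E3 microglia, the same libraries as in the comparison with E4, were lower than WT in 15 members. The others were 2 that were higher and 12 that did not pass, with a median of -0.45 over the 29 beside -0.06 over all genes. The 58.6% called is near the 55.2% of all genes called in this comparison. The 51.7% lower among members compares with 32.3% lower among all genes, of which 22.9% were higher. All 3 tested members of the oligoadenylate synthetase group were lower, as were all 3 signalling factors, 3 of 4 nucleic acid sensors and Mx1, while no IFIT gene was lower. Under scaling to the coding total alone, 11 were lower and 2 higher, and among all called genes the share that was higher went from 41.5% to 53.3%. The fit of all 47 libraries without weights called 10 members. In the same libraries, the border macrophage sum, nearly all of it Pf4, was 698 to 1054 in WT and 317 to 498 in E3. The neuron and astrocyte sums were above WT in every E3 library. The part of these markers in the differences was not tested.

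Rtp4, an interferon-induced receptor chaperone, had the largest decrease. It was 80.7, 86.7, 52.5, 52.4 and 48.7 in WT replicates 1 to 5 and 25.7, 32.2, 23.5 and 39.3 in E3, without overlap, a difference of -1.05 ± 0.30 (adjusted p = 0.00346). Irf7 was 61.1, 52.2, 33, 42.9 and 33.4 in WT, so that 1 E3 library lay within the WT range, and differed by -1.02 ± 0.28 (adjusted p = 0.00212). Sp100, a protein of nuclear bodies, was 40.9, 46.4, 34.9, 38.0 and 41.3 in WT and 18.9, 19.2, 20.5 and 21.8 in E3, again without overlap, and differed by -0.97 ± 0.18 (adjusted p = 2.36e-05).

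Oasl2 was 68.4, 53.7, 38.8, 48.3 and 43.5 in WT, above all E3 libraries, with a difference of -0.88 ± 0.24 (adjusted p = 0.00255). Stat2 was 24.7, 27.9, 24.3, 25.6 and 24.8 in WT, also above all of E3, and differed by -0.68 ± 0.18 (adjusted p = 0.00181). Mx1, low in abundance, was 6.31, 5.56, 1.21, 2.41 and 5.20 in WT and 1.31, 1.2, 1.07 and 2.67 in E3 with overlap, and differed by -0.91 ± 0.33 (adjusted p = 0.0193). The remaining decreases ran from -0.87 for Oas2 to -0.39 for Ifitm3 and included the sensors Dhx58, Ddx58 and Ifih1. Those of Ifih1, Ddx58, Trim30a and Ifitm3 were not called under scaling to the coding total.

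Gbp2 and Ifit3 went the other way. Gbp2 was 4.28, 3.98, 3.95, 5.94 and 2.98 in WT, below every E3 library, and its difference was 1.0 ± 0.22 (adjusted p = 0.000191). Ifit3 was 19.1, 24.2, 15.0, 13.1 and 12.7 in WT, with 1 WT library above the lowest of E3, and its difference was 0.81 ± 0.34 (adjusted p = 0.0422). The Ifit3 call was lost when single libraries were left out.

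Against WT, untreated E4 was higher in Gbp2 and Ifit3, as E3 was; both comparisons use the same WT libraries, and the values are given side by side. In E4 against WT, 5 members were higher, 3 lower and 21 not called, and the 27.6% called lies below the 64.0% of all genes (25.8% higher and 38.2% lower). Gbp2 had the largest difference at 1.65 ± 0.21 (adjusted p = 8.01e-09), with every E4 library above every WT library. Ifit3 was higher by 1.27 ± 0.32 (adjusted p = 0.000753) and its neighbour Ifit3b by 0.99 ± 0.26 (adjusted p = 0.001), both without overlap. Cmpk2, a mitochondrial nucleotide kinase, was 6.00, 5.50, 2.56, 2.23 and 3.39 in WT and 4.19, 7.96, 5.38, 10.5 and 6.52 in E4 and differed by 0.70 ± 0.30 (adjusted p = 0.0435). Lgals3bp was 245, 243, 197, 231 and 185 in WT and differed by 0.47 ± 0.10 (adjusted p = 0.000141), where E3 had differed by 0.03 ± 0.11 (adjusted p = 0.83). Sp100, Parp14 and Irf9 were lower, at -0.49 ± 0.17 (adjusted p = 0.011), -0.37 ± 0.13 (adjusted p = 0.0113) and -0.31 ± 0.11 (adjusted p = 0.0147). These 3 decreases were not called under scaling to the coding total, which moved the median of all genes by 0.11 and gave 7 higher and 0 lower; the share of called genes that was higher went from 40.3% to 51.2%. Irf7 in E4 differed from WT by -0.08 ± 0.26 (adjusted p = 0.795) and Stat2 by -0.08 ± 0.17 (adjusted p = 0.699). The fit of all 47 libraries without weights called 4 members.

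After myelin, 4 members were higher and 2 lower in E3 than in WT (34.8% of all genes called, 15.7% higher and 19.1% lower), and 5 were higher and 3 lower in E4 than in WT (53.2%, 23.6% higher and 29.6% lower). Ifit3 was 7.91, 14.5, 8.05, 10.3 and 20.5 in WT, 18.3, 19.4, 28.5 and 25.1 in E3 and 23.3, 27.7, 28.3, 42.1 and 37.6 in E4, and it was higher by 0.91 ± 0.34 (adjusted p = 0.0345) in E3 and by 1.36 ± 0.32 (adjusted p = 0.00048) in E4. All E4 libraries exceeded all WT libraries. Gbp2 (0.70 ± 0.22 and 1.14 ± 0.21), Ifit3b (0.69 ± 0.27 and 1.23 ± 0.26) and Lgals3bp (0.41 ± 0.11 and 0.75 ± 0.10) were called higher in both. Ifitm3 was lower in both, at -0.45 ± 0.17 (adjusted p = 0.0337) and -0.47 ± 0.16 (adjusted p = 0.0104). It was 1121, 1259, 1267, 1107 and 1109.9 in WT, 784, 944, 850.1 and 868 in E3 and 813, 828, 761, 779.7 and 1065 in E4, and all libraries of both lines lay below WT. Dhx58 was also lower in E3 at -0.47 ± 0.16 (adjusted p = 0.0196). In E4, Bst2 was higher at 0.41 ± 0.12 (adjusted p = 0.00305) and Oas2 and Parp14 lower at -0.62 ± 0.23 (adjusted p = 0.019) and -0.31 ± 0.13 (adjusted p = 0.0435). With scaling to the coding total the counts were 5 higher and 0 lower in E3 and 8 higher and 1 lower in E4, and the share of called genes that was higher went from 45.1% to 64.1% and from 44.4% to 57.9%. The E3 count was 3 without E3 after myelin 4. Without weights over all 47 libraries, 1 member was called in E3 and 5 in E4.

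**Figure D4:**
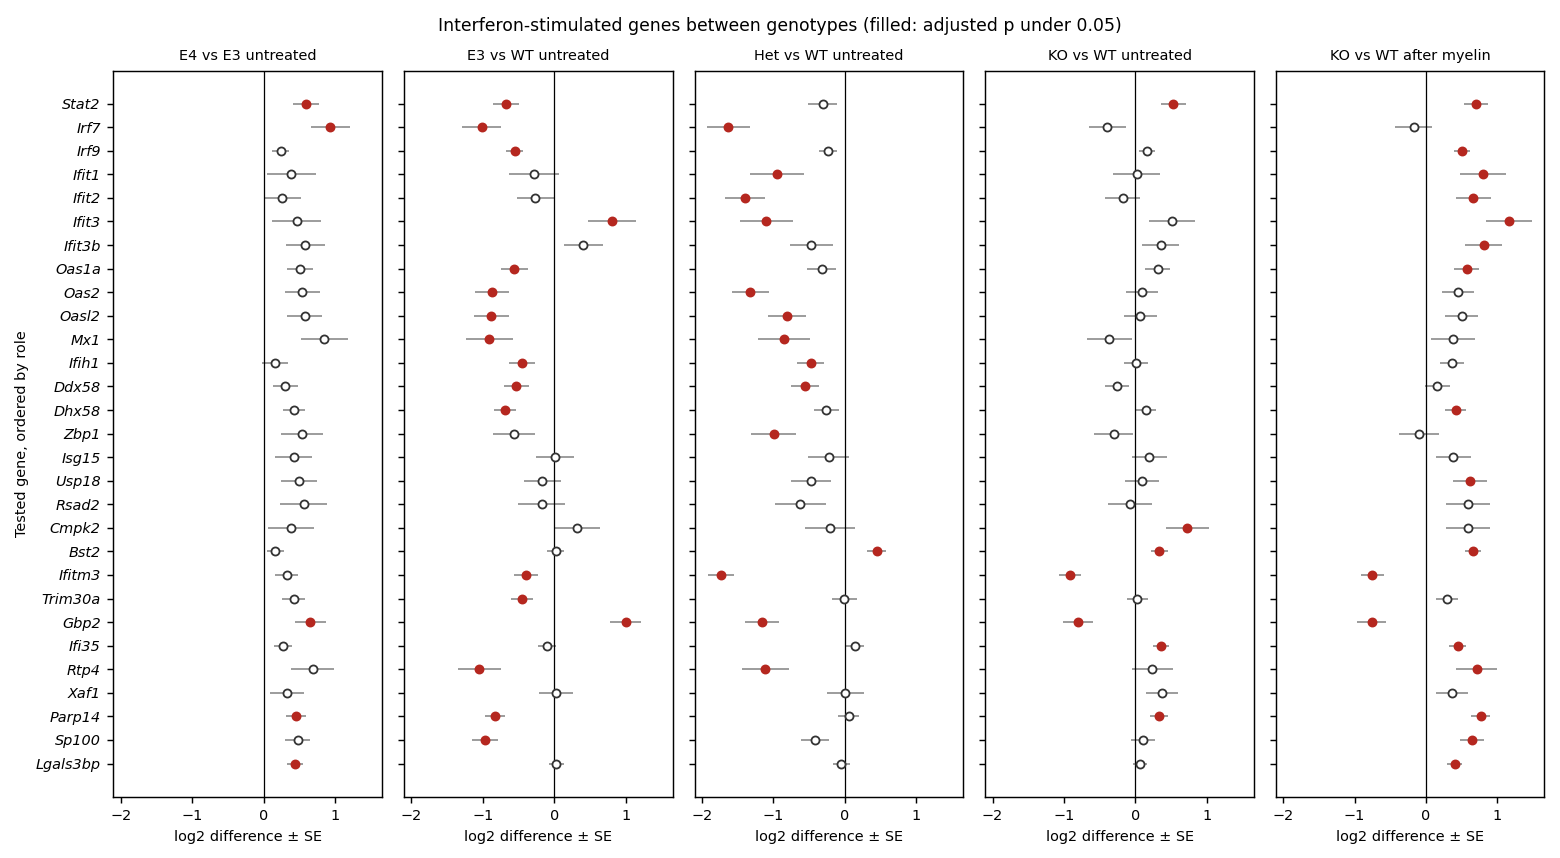
Difference of each of the 29 tested genes (vertical axis) between genotypes on the log2(scaled TPM + 1) scale (horizontal axis) with its SE, for 5 comparisons; filled points passed limma at an adjusted p under 0.05. All points lie right of 0 for E4 against E3, most lie left of 0 for E3 and Het against WT, and most lie right of 0 for KO against WT after myelin.

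KO cultures, which lack Apoe, were compared with the same WT libraries. In untreated KO, 5 members were higher than in WT, 2 were lower and 22 did not pass, and the 24.1% called lies below the 56.1% of all genes (25.8% higher and 30.3% lower). Stat2 was 41.0, 37.7, 39.1, 31.6 and 37.4 in KO against 24.7, 27.9, 24.3, 25.6 and 24.8 in WT, without overlap, a difference of 0.53 ± 0.17 (adjusted p = 0.00736). Cmpk2 was 6.96, 6.40, 6.94, 6.14 and 7.53 in KO, above all WT libraries, and differed by 0.73 ± 0.30 (adjusted p = 0.0399). Ifi35, an interferon-induced leucine zipper protein, was higher by 0.36 ± 0.12 (adjusted p = 0.00722), Bst2 by 0.34 ± 0.12 (adjusted p = 0.012) and Parp14 by 0.33 ± 0.13 (adjusted p = 0.0287).

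Ifitm3 and Gbp2 were lower in KO. Ifitm3 was 594, 728, 616, 592 and 1144 in KO and 1437, 1441, 1359, 1323 and 1169 in WT, a difference of -0.92 ± 0.16 (adjusted p = 3.57e-06). All KO libraries lay below WT, and the highest, replicate 5, is the one with the fibroblast marker sum of 652. Gbp2 was 1.5, 2.37, 1.01, 1.21 and 4.96 in KO and differed by -0.80 ± 0.21 (adjusted p = 0.000988), with the same replicate 5 inside the WT range. Without KO untreated 5, 2 members were higher and 2 lower. Without weights over all 47 libraries, 3 were called. Cmpk2 lost its call under scaling to the coding total.

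After myelin, 15 of the 29 members were higher in KO than in WT, 2 were lower and 12 were not called, with a median of 0.50 beside 0.05 over all genes. The share called was 58.6% against 54.9% of all genes, which is near it, and 51.7% of members were higher against 30.1% of all genes, of which 24.8% were lower. All 4 IFIT genes were higher. Ifit3 was 39.6, 17.0, 27.3, 19.1 and 40.8 in KO and 7.91, 14.5, 8.05, 10.3 and 20.5 in WT, with overlap, and was higher by 1.17 ± 0.32 (adjusted p = 0.00215). Ifit3b was higher by 0.81 ± 0.26 (adjusted p = 0.00738) and Ifit1 by 0.80 ± 0.33 (adjusted p = 0.0366). Ifit1 was 9.13, 4.13, 5.88, 5.50 and 8.44 in KO and 1.70, 3.4, 2.30, 3.45 and 6.94 in WT, also with overlap.

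Of the 29 tested members, 5 lay above WT and 2 below it without overlap, and Parp14 and Bst2 were among the 5. The same count over all genes was not made. Parp14 was 21.8, 15.3, 20.8, 17.9 and 18 in KO and 11, 9.56, 8.50, 10.4 and 14.0 in WT, a difference of 0.76 ± 0.13 (adjusted p = 3.98e-06). Bst2 was 471, 416, 464, 463 and 337 in KO and 226, 318, 281, 255 and 282 in WT, a difference of 0.65 ± 0.12 (adjusted p = 7.34e-06). Stat2 was higher by 0.70 ± 0.17 (adjusted p = 0.000627), at 35.2, 27.7, 43.3, 28.9 and 34.7 against 16.9, 20.7, 17.4, 19.6 and 28.5, and Irf9 by 0.50 ± 0.11 (adjusted p = 0.000227), whereas Irf7 was not called. It was 47.8, 21.3, 39.7, 27.9 and 30.8 in KO and 29, 37.3, 33.7, 35.0 and 49.9 in WT, a difference of -0.17 ± 0.26 (adjusted p = 0.606). The other increases were those of Rtp4, Ifit2, Sp100, Usp18, Oas1a, Ifi35, Dhx58 and Lgals3bp, from 0.40 to 0.71. Isg15 (0.38 ± 0.25), Oasl2 (0.50 ± 0.23) and Rsad2 (0.59 ± 0.31) did not pass.

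Gbp2 and Ifitm3 were again lower. Gbp2 was 1.48, 0.978, 1.78, 0.870 and 1.64 in KO and 2.39, 3.49, 2.26, 2.80 and 3.93 in WT, without overlap, a difference of -0.76 ± 0.21 (adjusted p = 0.00187). Ifitm3 was 849, 596, 787, 796 and 514 in KO, below every WT library, and differed by -0.75 ± 0.16 (adjusted p = 9.22e-05). Leaving out single libraries gave 12 to 20 calls, the lowest without WT after myelin 1, and the fit of all 47 libraries without weights called 10. Fibroblast and pericyte markers, which include collagens, summed to 34.6 to 142 in KO and 829 to 1153 in WT after myelin, and microglial markers to 9628 to 10615 and 5917 to 7969; their part was not tested. The KO myelin response differed from that of WT in 0 members by limma (3.35% of all genes called, 1.41% higher and 1.94% lower), with 5 members at an unadjusted p under 0.05 and 1 called with library weights. The interaction was positive for 27 of 29 members and for 6219 of 10894 genes. Of the genes called, the share that was higher went from 42.2% to 28.6% under scaling to the coding total. Over all genes 365 were called in this interaction, 57 without WT after myelin 1 and 788 without WT after myelin 2.

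Untreated Het cultures, of which 3 libraries could be tested, had lower levels of 13 members than WT. Of the others, 1 was higher and 15 did not pass, with a median of -0.47 over the 29 beside -0.12 over all genes. The share called was 48.3% against 57.4% of all genes, and 44.8% of members were lower against 35.5% of all genes, of which 21.8% were higher. Ifitm3 had the largest difference. It was 422, 338 and 458 in Het replicates 1, 2 and 4, and 429 and 94.2 in the replicates 3 and 5 left out, a difference from WT of -1.74 ± 0.18 (adjusted p = 1.7e-10). Every Het library lay below every WT library.

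Irf7 was 18.6, 12.8 and 9.74 in the tested Het libraries, all below WT, and was lower, with a difference of -1.63 ± 0.30 (adjusted p = 1.6e-05). Ifit2 was 1.75, 1.56 and 0.944 against 5.53, 5.84, 5.20, 5.86 and 4.16 in WT, a difference of -1.40 ± 0.28 (adjusted p = 6.71e-05). Oas2 was 3.16, 2.02 and 1.66 against 8.42, 9.43, 5.53, 6.16 and 6.39, and Gbp2 was 1.44, 1.47 and 1.03 against the WT values given above. None of these overlapped WT, and the differences were -1.32 ± 0.26 (adjusted p = 4.12e-05) for Oas2 and -1.16 ± 0.24 (adjusted p = 7.29e-05) for Gbp2. Rtp4 was lower, with a difference of -1.11 ± 0.33 (adjusted p = 0.00399) and Ifit3 (10.1, 9.36 and 3.62) by -1.10 ± 0.37 (adjusted p = 0.0108).

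Bst2 was the exception, at 329, 403 and 377 in the tested Het libraries and higher by 0.45 ± 0.13 (adjusted p = 0.00433). Stat2 (24.9, 19.4 and 17.2) and Isg15 (32.1, 26.8 and 30.6) did not pass, at -0.31 ± 0.20 (adjusted p = 0.174) and -0.23 ± 0.29 (adjusted p = 0.512). Without Het untreated 4 the count was 9. Astrocyte and fibroblast sums in Het lay below all WT libraries, as given above, and their part was not tested.

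Among the genotype means of untreated cultures, KO was highest for 13 members, E4 for 10, WT for 5 and Het for 1, while Het was lowest for 17 and E3 for 10. E3 was highest for none. After myelin, KO was highest for 15, Het for 7, E4 for 5 and WT for 2, with E3 lowest for 14. With Het set aside, E3 was lowest for 19 untreated and 15 after myelin, and KO was highest for 14 and 21. The Het rank after myelin rests on 2 libraries, replicate 3 high and replicate 4 low. These ranks are over the 43 libraries and carry no test of their own.

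Within genotypes, myelin against untreated gave few calls. In WT, 0 of 29 members were called by limma, where 6.17% of all genes were (5.43% higher and 0.734% lower). At an unadjusted p under 0.05 there were 5, library weights called 1 and the fit of 47 libraries without weights 0. Of the 29 differences, 26 were negative with a median of -0.34, and over all genes 6246 of 10894 were negative. The share of all genes called was unstable, with 672 genes called, 305 without WT untreated 4 and 949 without WT after myelin 2. Both tested border macrophage markers, Mrc1 and Pf4, were lower after myelin. The border macrophage sum, nearly all of it Pf4, was 698 to 1054 untreated and 499.7 to 680.3 after myelin. The part of these markers was not tested. Without WT after myelin 5, the library that was highest for 21 members, 1 was called. Stat2 was 16.9, 20.7, 17.4, 19.6 and 28.5 after myelin and 24.7, 27.9, 24.3, 25.6 and 24.8 without, with 4 of 5 myelin libraries below all untreated ones, and differed by -0.31 ± 0.17 (adjusted p = 0.314). Ifit2 had one of the larger differences at -0.58 ± 0.25 (adjusted p = 0.176), from 5.53, 5.84, 5.20, 5.86 and 4.16 to 2.17, 3.63, 2.31, 3.47 and 4.97.

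In E4, 4 of 29 members were called (13.8%, against 12.1% of all genes, 8.18% higher and 3.94% lower); 3 members were lower and 1 higher after myelin. Gbp2 went from 11, 16.6, 15.0, 19.3 and 15.1 to 8.59, 5.33, 7.09, 8.74 and 9.02, without overlap, a difference of -0.90 ± 0.21 (adjusted p = 0.00291). Ifitm3 went from 1423, 1412, 1262, 1036 and 1283 to 813, 828, 761, 779.7 and 1065, with 1 myelin library inside the untreated range, and differed by -0.60 ± 0.16 (adjusted p = 0.00974). Oas2 went from 3.21, 7.15, 5.32, 5.75 and 6.47 to 2.15, 2.32, 2.21, 3.82 and 4.85 with overlap and differed by -0.71 ± 0.23 (adjusted p = 0.0349).

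Irf7 in E4 was 19.4, 15.3, 19.2, 32.6 and 40.0 after myelin, with the untreated values given above, and its difference of -0.76 ± 0.26 (adjusted p = 0.0511) missed the threshold. Isg15 was 22.9, 33.1, 23.4, 33.3 and 43.9 after myelin and gave -0.62 ± 0.25 (adjusted p = 0.0928). Of the 29 differences in E4, 27 were negative, with a median of -0.30, and over all genes 4977 of 10894 were negative. Each of E4 untreated 3, E4 after myelin 1 and E4 after myelin 3, when left out, reduced the count to 2; with library weights it was 13, and without weights over all 47 libraries 1. Over all genes 1320 were called, and 785 without E4 untreated 1. The share of called genes that was higher went from 67.5% to 51.8% under scaling to the coding total.

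In these tests Lgals3bp was the only member called higher after myelin, in 3 genotypes. In E3 it went from 210.4, 247, 197 and 244 to 347, 264, 309.6 and 271, without overlap, and rose by 0.40 ± 0.11 (adjusted p = 0.0324). It was the only member called in E3, 3.45% against 5.15% of all genes (3.42% higher and 1.73% lower). Of the genes called, 66.5% were higher, and 52.8% under scaling to the coding total. The count of all genes was 561, and 84 without E3 after myelin 3. In E4 it went from 318, 323, 297, 259.7 and 321 to 369.7, 339, 385, 371 and 418, without overlap, and rose by 0.31 ± 0.10 (adjusted p = 0.0397). In KO it went from 204, 261, 204, 202 and 285 to 324, 262, 299, 304 and 290.0 with overlap and rose by 0.37 ± 0.10 (adjusted p = 0.0446), the single call in KO, where 2.29% of all genes were called (1.16% higher and 1.13% lower, a count that fell to 119 genes without KO after myelin 5). In WT it was 217, 253, 207, 198 and 246 after myelin, and its difference was 0.03 ± 0.10 (adjusted p = 0.913). Mean Bst2 also rose without a call, from 275 to 323 in E3, 308 to 362 in E4 and 345 to 430 in KO. In WT mean Bst2 was 271 untreated and 273 after myelin. All 3 Lgals3bp calls were lost in the fit of all 47 libraries without weights. The E3 call was lost without any one of E3 untreated 1 or 3 or E3 after myelin 1 or 3, the E4 call without any one of E4 untreated 1, 3 or 4 or E4 after myelin 1, 3, 4 or 5, the KO call without any one of 7 libraries, and the KO call also under scaling to the coding total. Gbp2 in E3 was 4.40, 7.23, 4.51 and 5.77 after myelin, below all untreated E3 libraries, but its difference of -0.69 ± 0.23 (adjusted p = 0.0654) did not pass.

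In Het, where 2 myelin libraries could be tested, limma called 0 members (0.119% of all genes), and 4 members had an unadjusted p under 0.05. All 29 differences were positive, as were 4322 of 10894 genes. Isg15 was 96.5, 26.2, 97.1 and 23.8 in Het after myelin, replicates 1 to 4, and Oasl2 71.5, 18.7, 64.1 and 20.3. Replicates 1 and 3 were high and 2 and 4 low for both genes. The coding shares of the 4 libraries were 4.12%, 2.91%, 8.04% and 13.9%. Without Het after myelin 4, which leaves replicate 3 as the only myelin library and its spread taken from the other groups, 10 members and 552 of all genes were called, against 13 genes with it. Library weights called 16 and the fit of 47 libraries without weights called 0. Of the genes called in Het, the share that was higher went from 0% to 14.3% under scaling to the coding total.

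**Figure D5:**
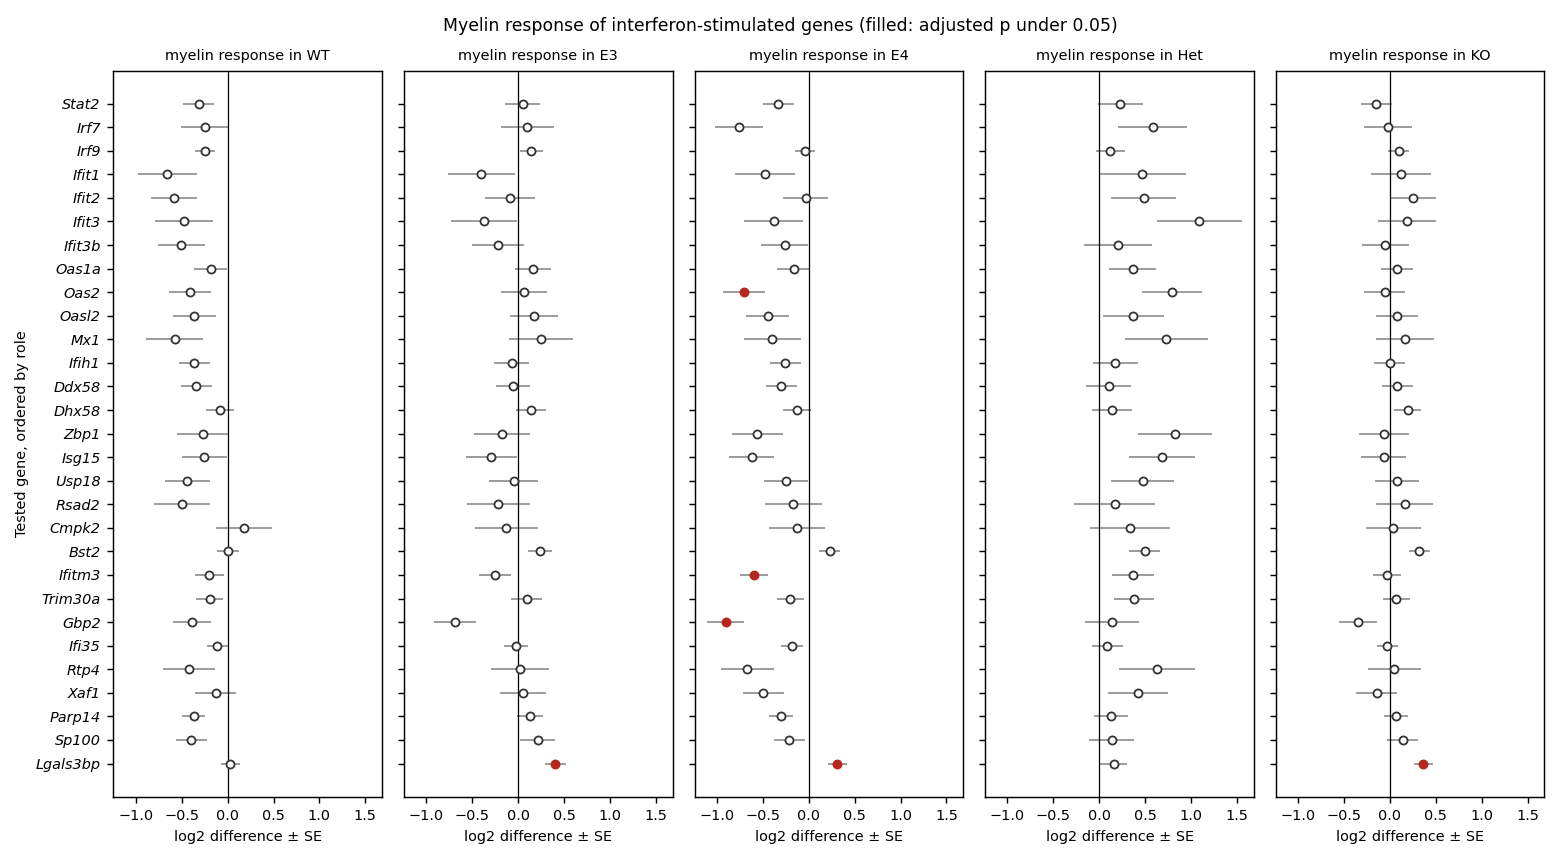
Difference between myelin-treated and untreated libraries of each genotype on the log2(scaled TPM + 1) scale (horizontal axis) with its SE for the 29 tested genes (vertical axis); filled points passed limma at an adjusted p under 0.05. Lgals3bp is filled in E3, E4 and KO; Gbp2, Oas2 and Ifitm3 are filled in E4; no gene is filled in WT or Het.

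Other genes of the pathway, taken from 6 lists, were counted in the same tests. Of 38 further type I interferon-stimulated genes tested, 8 were higher and 0 lower in untreated E4 than in E3, where 6.83% of all genes were higher. Against WT, untreated E3 had 0 higher and 26 lower (32.3% of all genes lower), untreated E4 4 and 14 (38.2% lower), and untreated KO 8 and 2 (25.8% higher). After myelin KO had 26 higher and 2 lower (30.1% of all genes higher), and untreated Het had 5 and 12 (35.5% lower). The medians of the 38 were 0.26 for E4 against E3, -0.52 for E3 and -0.22 for E4 against WT untreated, and 0.44 for KO after myelin. Ifi27l2a and Slfn5 were among the 8, at 1.01 ± 0.26 (adjusted p = 0.00536) and 0.68 ± 0.24 (adjusted p = 0.0416). In E3 against WT, Ms4a6b (-1.43 ± 0.15) and Slfn5 (-1.34 ± 0.24) were lowest. In KO, Parp12 was 23.5 ± 7.76 (SD, n = 5) scaled TPM after myelin against 4.98 ± 0.792 (SD, n = 5) in WT and was higher by 1.99 ± 0.19 (adjusted p = 1.87e-11).

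Of the 5 receptor chains tested, 3 were lower and 0 higher than WT in untreated E3, where 55.2% of all genes were called, and likewise in untreated E4, where 64.0% were. In KO, 3 were higher and 0 lower untreated, and 4 were higher and 0 lower after myelin. Of all genes, 56.1% were called in KO untreated and 54.9% after myelin. The counts of 3 of 5 in untreated E3, E4 and KO lie near the shares of all genes. In E3 Ifnar1 (-0.96 ± 0.10, adjusted p = 1.52e-10), the receptor chain for type I interferon, and Ifngr1 (-1.01 ± 0.12, adjusted p = 2.89e-09), that for interferon gamma, were among the 3. E4 gave -0.80 ± 0.09 (adjusted p = 1.12e-09) and -0.90 ± 0.11 (adjusted p = 4.89e-09) against the same WT libraries. None of the 5 was called between E4 and E3. Ifnar1 was 101 ± 8.51 (SD, n = 5) scaled TPM in untreated WT, 51.5 ± 5.09 (SD, n = 4) in E3 and 57.5 ± 6.24 (SD, n = 5) in E4. Of 10 upstream sensors and adaptors, 9 were lower and 1 higher in untreated E3 than in WT, and 7 were lower and 1 higher in E4. Among all genes, 32.3% were lower in E3 and 38.2% in E4. Tlr4, the receptor for bacterial lipopolysaccharide, led in E3 (-1.57 ± 0.20, adjusted p = 2.37e-08). In KO, 1 was lower and 0 higher untreated, and 6 were higher and 0 lower after myelin, where 30.1% of all genes were higher.

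Of 10 kinases and transcription factors, 3 were higher and 0 lower in untreated E4 than in E3, where 16.8% of all genes were called. Against WT untreated, 0 were higher and 6 lower in E3, 0 and 2 in E4, and 3 and 2 in KO. Of all genes, 55.2%, 64.0% and 56.1% were called in the same order, and the E3 and KO counts lie near these shares. Irf1, a factor induced by interferon gamma, was 30.2 ± 3.82 (SD, n = 4) scaled TPM in untreated E3 and 71.3 ± 8.13 (SD, n = 5) in E4, a difference of 1.21 ± 0.13 (adjusted p = 2.17e-08), and the difference after myelin was 1.37 ± 0.13 (adjusted p = 2.89e-09). Of 5 feedback genes, 2 were higher and 0 lower in untreated E4 than in E3, Socs3 by 1.27 ± 0.16 (adjusted p = 2.09e-07) and Ptpn6 by 0.26 ± 0.09 (adjusted p = 0.0438). Against WT, 0 were higher and 5 lower in untreated E3, 2 and 2 in untreated KO, and 3 and 1 in KO after myelin. The KO median after myelin was 0.48. Of all genes, 32.3% were lower in untreated E3, and 56.1% and 54.9% were called in KO untreated and after myelin. Socs3, which dampens cytokine signalling, was among the lower in untreated KO, at 13.6 ± 0.740 (SD, n = 5) against 108 ± 20.7 (SD, n = 5) in WT, with a difference of -2.88 ± 0.15 (adjusted p = 1.06e-18).

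Of 16 genes induced by interferon gamma, 8 were tested. In untreated E4, 1 was higher and 0 lower than in E3, where 16.8% of all genes were called. Against WT untreated, 2 were higher and 4 lower in E3 with a median of -0.29, and 3 and 4 in E4 with a median of -0.22. In untreated KO, 1 was higher and 3 lower, and in untreated Het 0 and 5. Of all genes, 55.2% were called in E3, 64.0% in E4, 56.1% in KO and 57.4% in Het. After myelin, 3 were higher and 3 lower in KO, where 54.9% of all genes were called. Cxcl10, a chemokine, was among the higher in E3 and E4. It was 9.44 ± 2.84 (SD, n = 5) in untreated WT, 33.9 ± 9.03 (SD, n = 4) in E3, 49.7 ± 6.62 (SD, n = 5) in E4 and 2.73 ± 1.36 (SD, n = 5) in KO. Its difference from WT was 1.75 ± 0.22 (adjusted p = 3.53e-08) in E3, 2.31 ± 0.21 (adjusted p = 4.99e-12) in E4 and -1.51 ± 0.21 (adjusted p = 8.86e-08) in KO. After myelin 2 of the 8 were lower in E4 than in untreated E4, where 12.1% of all genes were called. They were Cxcl10 at -1.51 ± 0.21 (adjusted p = 4.83e-06) and Gbp6 at -0.81 ± 0.20 (adjusted p = 0.00685).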

How the data were processed

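RNA of 47 mouse microglia libraries was measured. The authors deposited 1 table of TPM for 53697 genes, and per the submitters' processing notes Salmon 0.13.1, limma 3.40.6 and the mm10 build were used; how each was run is not given in the sources used here. TPM hold no read depth, so the counting precision of each library is unknown. Each library's values were rescaled to 1000000 over nuclear protein-coding genes and then by TMM factors (30% of ratios and 5% of levels trimmed). They were tested as log2(value + 1) with limma 3.58.1 in R 4.3.3, in 1 fit over all groups without covariates, for genes at 5 or more scaled TPM in at least 4 libraries (10894 genes, of which 10614 coding and 280 lincRNA). P-values were adjusted over all genes tested in each of 16 comparisons. Libraries with a coding share under 6% were left out of the tests, which left 43. This fit was preferred to one with library weights because the weighted fit called more genes between parts of one group, and that choice, the 33 members and the pathway and marker lists were made with earlier results of these data known.

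All members are accounted for. Values per library are given for Irf7, Stat2, Isg15, Ifit3, Oasl2, Rsad2, Bst2, Ifitm3 and Lgals3bp and, in each comparison, for up to 6 called members with the largest differences; pathway genes are counted by direction. Members were matched by identifier to GENCODE M21 and by symbol to RefSeq promoters (25 of 33). The procedure was tested on simulated data. The alternatives were library weights, no exclusion of libraries, scaling to the coding total alone, pseudocounts of 0.5 and 5, no filter on low values, a replicate block, and leaving out each library. Replicate numbers recur across groups, but over 20 pairs of same-numbered samples the correlation of deviations ran from -0.20 to 0.46 and was over 0.1 in 5, so they were not taken as pairs.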

Additional observations from a re-analysis of the deposited data

Results flagged for a closer look

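In 21 of 280 sets of a member in a group, 1 library stood apart from the rest of its group by Dixon's criterion. Chance alone does so in about 1 set in 20. The sets covered 28 of the 33 members and included Het libraries left out of the tests. Het untreated 5, which is such a library, gave 5 of the 21. The members move together within libraries, so these sets are not independent.

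E3 untreated 4 stood apart at the top of its group for 8 of the 20 members for which it was the highest. Ifit3 was 56.3 scaled TPM there with the next library at 25.8, Ifit1 was 12 against 3.37, Ifit2 7.07 against 3.66 and Ifit3b 9.17 against 3.62. Rsad2 was 9.07 against 2.53, its neighbour Cmpk2 11.7 against 4.20, Usp18, which removes ISG15 from proteins, 18.3 against 8.79, and Mx1 2.67 against 1.31.

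Het untreated 5, the library with a coding share of 0.468% that was left out of the tests, stood apart at the bottom of its group for 4 of the 20 members for which it was the lowest, and at the top for 1 of 2. Isg15 was 10.5 there with the next library at 26.8, Bst2 79.2 against 329, Lgals3bp 76.5 against 196 and Ifi35 24.5 against 49.1. Ddx58, the gene of the RNA sensor RIG-I, was 43.5 against 22.3.

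KO untreated 5 was the highest of its group for Ifitm3, at 1144 against 728, and for Irf9, at 44.3 against 36.1. E4 after myelin 5 was the highest for Ifitm3, at 1065 against 828, and for Oas1a, at 60.6 against 44.0. Mx1 was highest in WT after myelin 5, at 5.48 against 2.31, and in E3 after myelin 3, at 3.17 against 1.78. Zbp1, a sensor of Z-form nucleic acid, was highest in KO after myelin 1, at 19.1 against 13.1. Isg15 was lowest in E3 after myelin 1, at 24.6 against 29.9.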

How the results depend on the processing

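None of the 89 calls of single members changed direction under any alternative run. With library weights 88 were kept, with a pseudocount of 0.5 88, with a pseudocount of 5 86, with scaling to the coding total 76, with no filter on low values 67 and without weights over all 47 libraries 47, while 50 were kept whichever library was left out. With library weights the counts of called members were 12 for E4 against E3 untreated, 1 for the KO interaction, and 1, 2, 13, 16 and 2 for myelin in WT, E3, E4, Het and KO. Without weights over all 47 libraries they were 1 and 0 for E4 against E3 untreated and after myelin, 10 and 1 for E3 against WT, 4 and 5 for E4 against WT, 3 and 10 for KO against WT, and 0, 1 and 0 for myelin in E3, E4 and KO. With no filter, E4 against E3 after myelin gave 0, E3 against WT after myelin 3, and myelin in E3, E4 and KO 0, 2 and 0. Myelin in KO gave 0 under scaling to the coding total, and myelin in E3 gave 2 with a pseudocount of 5. The cause of these shifts was not tested.

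Leaving out each library in turn gave 1 to 10 calls for E4 against E3 untreated and 0 to 1 after myelin, 13 to 15 and 3 to 6 for E3 against WT, 6 to 8 and 6 to 11 for E4 against WT, 4 to 7 and 12 to 20 for KO against WT, 9 to 14 for Het against WT, and 0 to 1, 0 to 1, 2 to 5, 0 to 10 and 0 to 1 for myelin in WT, E3, E4, Het and KO; both interactions stayed at 0. With the replicate number as a block, myelin in E3 and in KO gave 0, and the block left 4 for E4 against E3 untreated, 16 for E3 against WT untreated and 18 for KO against WT after myelin. Without read depth, low members such as Mx1, Rsad2 and Gbp2 carry an unknown counting error.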
